A study of Mus musculus with 12 samples.

Results

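Imprinted genes were examined in mouse embryos whose mothers ate a high-fat or a control diet. The members were 35 genes, taken as every array probe whose platform gene symbol was on the list. Of the 35, 31 had a probe, 70 probes in all among the 45281 on the array, and 22 were tested with 39 probes. By the parental allele known to be expressed, 19 members are paternally expressed and 15 maternally expressed, and Gnas is imprinted transcript by transcript. The rule used no measured value.

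In many imprinted genes, methylation laid down in the egg or the sperm marks the parental copies apart, and 1 copy is silent in some or all tissues. Many paternally expressed genes, such as Igf2, promote growth of the fetus and placenta, and many maternally expressed genes, such as Cdkn1c, Phlda2, Grb10 and Igf2r, restrain it. The genes lie in clusters, and several clusters hold a long non-coding RNA transcribed from a single parental copy. The arrays measured the RNA of both copies together. None of the values below says which copy was active, or whether a member was imprinted in these embryos.

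The samples were 12 embryos of the C57BL6/J strain at 8.5 days post coitum, each on 1 Illumina array, in 4 groups of 3. Embryos were wild type or Cited2 -/-, homozygous for loss of the transcriptional co-activator Cited2, and all had Cited2+/- parents. Their mothers received a specially formulated high-fat or control diet from 6 weeks of age, were mated after 8 weeks on it, and stayed on it while pregnant. Whole embryos were used after the yolk sac and allantois had been taken away, and somites were counted to match stages. The 6 numbers in the sample titles each recur in a Cited2 -/- and a wild-type embryo of equal diet, with no statement of what they mark. The labels do not say whether embryos came from separate litters, so p-values measure the spread between these embryos. Within each group of 3 the title numbers differ, so each diet has fewer numbers than embryos. If a number marks a mother, the averaged diet effect rests on fewer mothers than embryos. Because whole embryos were measured, fewer cells of a type and less RNA per cell cannot be told apart.

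Cited2 itself was detected on 6 of 6 wild-type arrays, at log2 signals of 10.94 to 11.90, and on 1 of 6 arrays of Cited2 -/- embryos, at 4.38 to 6.85. The difference was −6.41 ± 0.35 (SE, limma, adjusted p = 4.6e-06). The arrays fell into 2 sets that the groups do not explain. Replicate 1 from every group made up set A together with the second replicates of both high-fat groups, and the other 6 arrays made up set B. The first principal component (47.7% of the variance) separated them, with scores of −43.0 to −17.5 for set A arrays against 16.1 to 48.7 for set B arrays. Since 4 high-fat arrays belonged to the first set and 2 to the second, diet effects are also given with the set as a block. Actc1, Meox1 and Otx2, markers of heart, somite and neural tissue, were detected on all 12 arrays. Each array detected 36.6% to 41.6% of its probes.

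Levels below are background-corrected, quantile-normalized log2 signals, and a probe counts as detected at a detection p under 0.01. Detection on at least 3 of the 12 arrays was required for a test. Of the 19 paternally expressed members, 18 had a probe and 13 were tested, and of the 15 maternally expressed members, 12 had a probe and 8 were tested. Usp29, Plagl1, Sgce, Nap1l5 and Peg12 among the paternally expressed genes, and Ascl2, Zim1, Gatm and Asb4 among the maternally expressed genes, had probes that were not tested. Of these 9 genes, 7 were not well above background on any array, while Usp29 and Ascl2 were detected on 1 array. Snrpn, H19, Mirg and Slc22a3 were not analysed here. A gene with several tested probes is described by the brightest, and other probes are given where they differ. The 22 tested genes had to be detected somewhere, so counts over them are not counts over all 35.

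The promoters of 3 members are shown with their CG pairs marked, since many imprints are methylation of cytosines in such pairs. Whether these promoters carry an imprint was not examined. Phlda2 had the largest positive diet difference among the members, Mest with Rian the largest negative one, and Peg3 and Usp29 start from a shared stretch, with Peg3 detected on all 12 arrays and Usp29 on 1. CG pairs are in capitals, and the sequences are from RefSeq, build GRCm38.p6, read 5′ to 3′. The Phlda2 window is the 250 bases before its start at chr7:143502525-143502774 on the minus strand and holds 21 CG pairs. The Mest window is the 250 bases before its start at chr6:30737800-30738049 on the plus strand and holds 14. Mest has 3 annotated starts, and the window at chr6:30733256-30733505 holds 7. The stretch between the starts of Peg3 and Usp29 is given on the plus strand, chr7:6730420-6730582, has 163 bases and holds 5.
Phlda2: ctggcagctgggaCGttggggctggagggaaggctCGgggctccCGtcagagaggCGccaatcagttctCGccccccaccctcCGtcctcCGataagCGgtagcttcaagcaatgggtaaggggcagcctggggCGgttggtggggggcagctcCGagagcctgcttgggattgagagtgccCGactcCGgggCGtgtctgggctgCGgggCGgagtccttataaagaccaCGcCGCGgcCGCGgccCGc
Mest: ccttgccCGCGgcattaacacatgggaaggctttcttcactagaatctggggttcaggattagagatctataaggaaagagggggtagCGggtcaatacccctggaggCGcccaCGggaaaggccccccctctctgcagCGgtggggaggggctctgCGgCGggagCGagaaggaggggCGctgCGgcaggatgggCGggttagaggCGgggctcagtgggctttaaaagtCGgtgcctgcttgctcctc
Peg3 and Usp29: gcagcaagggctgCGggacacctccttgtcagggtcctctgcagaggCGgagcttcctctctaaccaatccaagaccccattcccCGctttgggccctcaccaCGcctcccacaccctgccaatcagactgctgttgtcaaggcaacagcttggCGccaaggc
A promoter window was found for 29 of the 35 members, and where a gene had several starts the window with the most CG pairs was taken, for the members and for all genes. The letters CG, which read the same on both strands, occurred a median of 11 times in the 250 upstream bases of these 29, against 6 times over 27018 genes. The median was 17 over 13 maternally expressed members, among them Grb10 with 40 and Rian with 0, and 8 over 15 paternally expressed members, among them Igf2 with 22. At least 10 CG pairs were present in 62.1% of the members' windows and in 40.2% of the windows of all genes. Methylation of these pairs was not measured.

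The main question for these genes was whether the mother's diet changed their RNA in the embryo. None of the 22 tested members passed an adjusted p under 0.05 for high-fat minus control diet averaged over genotypes (limma, Benjamini-Hochberg over all tested probes). None of the 19595 tested probes did either (0% called). The unadjusted p was under 0.05 for 5 members, namely Phlda2 on the higher side and Mest, Gnas, Ndn and Kcnq1ot1 on the lower side. The same held for 12.5% of 10764 genes, 8.47% on the higher and 4.04% on the lower side. Signal was lower on the high-fat diet for 13 of 22 members and for 40.2% of all genes. The median log2 difference was −0.05 over the members and 0.05 over all genes. For none of the 22 members did the 6 high-fat embryos lie wholly apart from the 6 control embryos, as they did for 0.557% of genes.

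**Figure D1:**
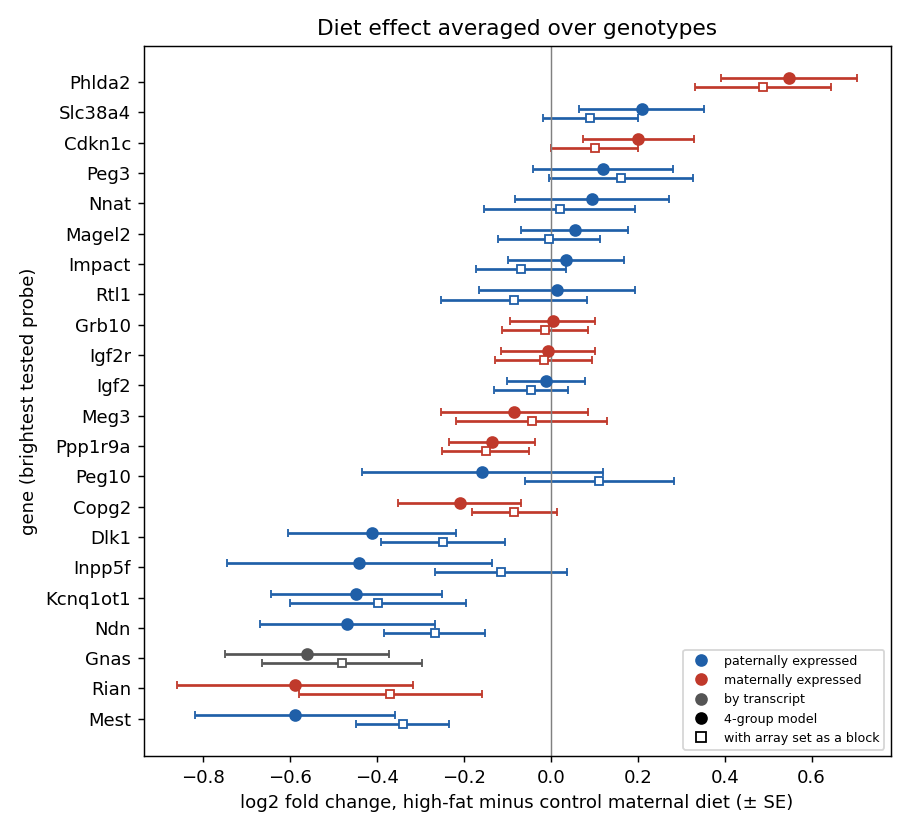
Log2 fold change between high-fat and control maternal diet for the 22 tested imprinted genes, with standard errors from the model over 12 embryos (circles) and from the model with the array set as a block (open squares), coloured by the allele known to be expressed. Phlda2 stood highest at 0.55, and Mest and Rian lowest at −0.59, and the block moved Mest to −0.34 and Rian to −0.37.

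Among the maternally expressed genes that restrain growth, Phlda2, a lipid-binding protein known for limiting placental growth, had the largest diet difference. In wild-type embryos its log2 signal was 12.64, 12.26 and 12.46 under control feeding and 13.34, 12.90 and 12.29 under high-fat feeding. In Cited2 -/- embryos it measured 12.50, 12.75 and 12.77 under control feeding and 13.37, 13.30 and 13.47 under high-fat feeding. So 5 of the 6 high-fat embryos lay above all 6 controls, the exception being wild-type replicate 3, and in Cited2 -/- embryos the diets did not overlap. The same held there for Gnas, Dlk1 and Kcnq1ot1, which were lower on the high-fat diet, and for no other tested member. Of all genes, 14.5% had diets that did not overlap in Cited2 -/- embryos and 7.41% in wild-type embryos, where no tested member did. The averaged difference was 0.55 ± 0.16 (SE, a 1.46-fold signal, n = 6 embryos a diet; limma, unadjusted p = 0.0046, adjusted p = 0.40). Its unadjusted 95% interval ran from 0.20 to 0.89. With the array set as a block the difference was 0.49 ± 0.16, and it was 0.66 within set A and 0.32 within set B. The set B value averages 0.71 in Cited2 -/- and −0.07 in wild-type embryos, where replicate 3 was the only high-fat embryo of each genotype.

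Phlda2 is abundant in the extra-embryonic tissues, so markers of those tissues are given beside it. Of 12 trophoblast markers, 6 were tested, namely Krt8, Krt18, Plac1, Cdx2, Tfap2c and Prl2c2. On the high-fat diet 5 of them were higher and 1, Krt8, was lower. The median log2 difference was 0.23, with 0 passing the test. Single genes ran from −0.21 ± 0.13 for Krt8 to 0.94 ± 0.59 for Prl2c2, with Krt18 at 0.03 ± 0.15. The mean normalized log2 signal of the tested trophoblast markers was 9.55 to 9.83 in control and 9.50 to 10.14 in high-fat wild-type embryos. In Cited2 -/- embryos it was 9.64 to 10.02 on control and 10.05 to 10.52 on high-fat diet, so there the diets did not overlap. The summed trophoblast signal before normalization was 9477 to 12418 in control and 7520 to 12276 in high-fat wild-type embryos, and 8775 to 12613 and 7179 to 15060 in Cited2 -/- embryos. Tpbpa, Ctsq and Elf5, which define trophoblast lineages, were not well above background on any array. The trophoblast values do not include them and cannot stand for the amount of trophoblast tissue. Of 20 markers of yolk sac endoderm, 15 were tested and 14 were higher on the high-fat diet, with a median of 0.37 and 0 passing. Their mean normalized log2 signal was 7.47 to 8.87 and 7.58 to 9.47 in wild-type embryos on control and high-fat diet, and 8.09 to 9.83 and 8.43 to 10.36 in Cited2 -/- embryos. Before normalization the sums were 6023 to 16662 and 7829 to 20408 in wild-type embryos on control and high-fat diet, and 8556 to 35124 and 8333 to 49218 in Cited2 -/- embryos. Afp and Fgb were not well above background on any array, while Apoa1 and Ttr were detected on all 12. Their part in the Phlda2 result was not tested.

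Cdkn1c, an inhibitor of cyclin-dependent kinases and the neighbour of Phlda2 in the Kcnq1 cluster, measured 13.86, 13.37 and 13.22 in wild-type controls and 13.91, 13.70 and 13.55 on high-fat. Cited2 -/- embryos gave 13.82, 13.86 and 13.63 on control and 14.13, 13.96 and 13.73 on high-fat diet. High-fat embryos spanned 13.55 to 14.13 and controls 13.22 to 13.86, so the diets overlapped, and the difference of 0.20 ± 0.13 did not pass (adjusted p = 0.48, limma) and was 0.10 with the array set as a block. Grb10, an adaptor that dampens insulin and IGF receptor signalling, and Igf2r, the receptor that clears IGF2, had the narrowest spread of this class. Grb10 lay between 13.33 and 13.67 on control and between 13.39 and 13.61 on high-fat diet, and Igf2r between 10.73 and 11.12 and between 10.69 and 11.14. The difference was 0.00 ± 0.10 for Grb10 with a 95% interval of −0.21 to 0.22 (−0.21 ± 0.19 with a second probe), and −0.01 ± 0.11 for Igf2r with an interval of −0.24 to 0.23.

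The other tested maternally expressed genes were Rian and Meg3, non-coding RNAs of the Dlk1 cluster, the coat protein gene Copg2 beside Mest, and Ppp1r9a, which encodes an actin-binding protein. Rian measured 8.65, 9.0 and 8.93 in wild-type controls and 7.74, 8.41 and 9.26 on high-fat. The Cited2 -/- values were 8.45, 8.39 and 9.51 on control and 7.57, 8.01 and 8.42 on high-fat diet. Of the 6 high-fat embryos, 3 lay below all controls, and wild-type replicate 3 lay above 5 of the 6. The difference was −0.59 ± 0.27 (adjusted p = 0.42, limma), and −0.37 ± 0.21 with the array set as a block. For Meg3, Copg2 and Ppp1r9a the differences were −0.08 ± 0.17, −0.21 ± 0.14 and −0.14 ± 0.10, and a second probe of Ppp1r9a gave 0.08 ± 0.13. With the set as a block Copg2 gave −0.08. Over the 8 maternally expressed genes, 5 were lower and 3 higher, with a median of −0.05.

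**Figure D2:**
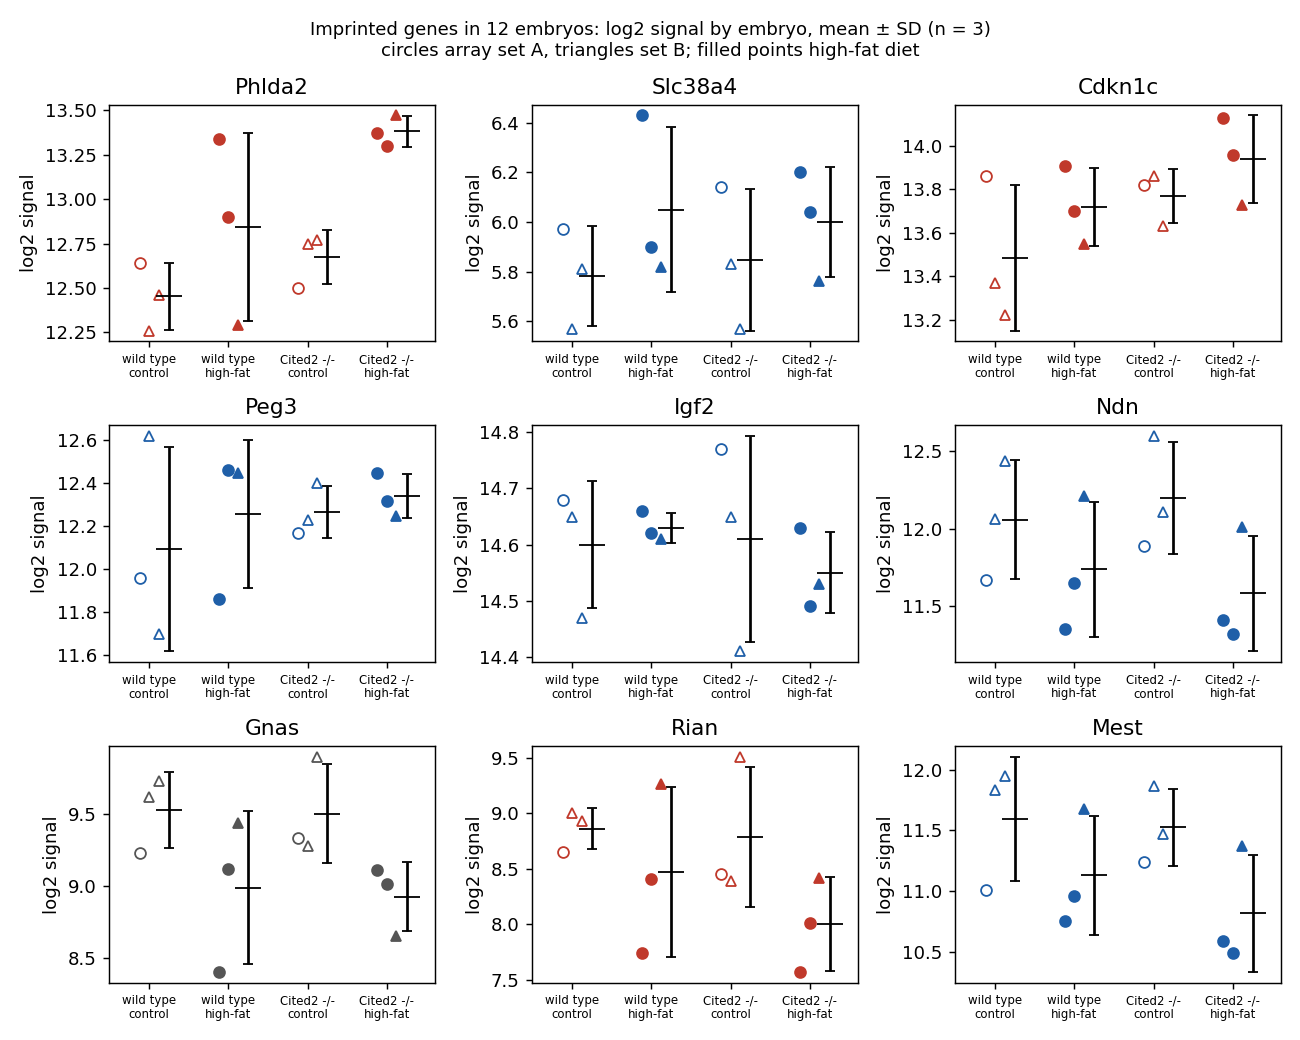
Log2 signal of 9 imprinted genes in every embryo, by genotype and maternal diet, with the mean and SD of each group of 3 beside the points, for the 4 largest diet differences in each direction and Igf2. Circles are array set A and triangles set B. Phlda2 ran from 13.30 to 13.47 in the Cited2 -/- high-fat embryos and from 12.50 to 12.77 in their controls, while Igf2 stayed between 14.41 and 14.77 in all 12.

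Among the paternally expressed genes, Igf2, the fetal growth factor, had the smallest diet difference. Its log2 signal was 14.68, 14.65 and 14.47 in wild-type controls and 14.66, 14.62 and 14.61 on high-fat. Values in Cited2 -/- embryos were 14.77, 14.65 and 14.41 on control and 14.63, 14.49 and 14.53 on high-fat diet. The high-fat values lay within the range of the controls. The difference was −0.01 ± 0.09 with a 95% interval of −0.21 to 0.19, and its sign differed between processing settings. Of 17 genes of the IGF axis, 12 were tested, 6 higher and 6 lower with a median of −0.04, and 0 passed. They ran from Igfbp5, a binding protein of the IGFs, at −0.41 ± 0.14 to the kinase Mtor at 0.33 ± 0.12 (adjusted p = 0.41 for both, limma).

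Mest, a hydrolase-like protein expressed in mesoderm, had the largest negative difference. Its brightest probe measured 11.01, 11.83 and 11.95 in wild-type controls and 10.75, 10.96 and 11.68 on high-fat. In Cited2 -/- embryos it measured 11.24, 11.87 and 11.47 on control and 10.59, 10.49 and 11.37 on high-fat diet. The 4 high-fat embryos of set A lay below all 6 controls, and of the 2 in set B, 1 lay below the controls of that set. The difference was −0.59 ± 0.23 (a 0.67-fold signal, unadjusted p = 0.026, adjusted p = 0.41, limma), with a 95% interval of −1.09 to −0.09. The other probes of Mest gave −0.97 ± 0.34 and −0.45 ± 0.18. Mest also differed between the array sets, being 0.74 higher in set B within groups, and blocking on the set gave a diet difference of −0.34 ± 0.11 (adjusted p = 0.43).

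Ndn, a MAGE-family protein that promotes the exit of neurons from the cell cycle, measured 11.67, 12.06 and 12.44 in wild-type controls and 11.35, 11.65 and 12.21 on high-fat. Cited2 -/- embryos gave 11.89, 12.60 and 12.11 on control and 11.41, 11.32 and 12.01 on high-fat diet. As for Mest, the 4 high-fat embryos of set A lay below all controls. The difference was −0.47 ± 0.20 (adjusted p = 0.42, limma), and −0.27 ± 0.12 with the set as a block. Dlk1, a Notch-like transmembrane protein of fetal progenitors, showed the same order in set A. It ran from 12.24 to 13.06 on control and from 11.71 to 12.91 on high-fat diet, a difference of −0.41 ± 0.19 with the brightest probe (−0.25 with the set as a block) and −0.02 ± 0.19 with another. Kcnq1ot1, the non-coding RNA that silences the paternal Kcnq1 cluster, ran from 8.13 to 9.18 on control and from 7.70 to 8.63 on high-fat diet. Its difference was −0.45 ± 0.20 (adjusted p = 0.42), and −0.40 ± 0.20 with the set as a block.

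Peg3 and Slc38a4 had the largest positive differences of this class. Peg3, a zinc-finger protein, measured 11.96, 12.62 and 11.70 in wild-type controls and 11.86, 12.46 and 12.45 on high-fat. The Cited2 -/- values were 12.17, 12.23 and 12.40 on control and 12.45, 12.32 and 12.25 on high-fat diet. The high-fat embryos lay within the range of the controls, and the difference was 0.12 ± 0.16 (0.02 without replicate 3 of the wild-type controls). Slc38a4, an amino acid transporter, measured 5.97, 5.57 and 5.81 in wild-type controls and 6.43, 5.90 and 5.82 on high-fat. Values in Cited2 -/- embryos were 6.14, 5.83 and 5.57 on control and 6.20, 6.04 and 5.76 on high-fat diet. Of the high-fat embryos, 2 lay above all controls, and the difference was 0.21 ± 0.14 (adjusted p = 0.50, limma), or 0.09 with the set as a block.

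The other 6 paternally expressed genes ranged from −0.44 ± 0.31 for Inpp5f, a phosphoinositide phosphatase gene with an imprinted short transcript, to 0.09 ± 0.18 for Nnat, a membrane proteolipid of the developing brain. Between them lay Peg10 and Rtl1, which derive from retrotransposons and act in the placenta, the MAGE-family gene Magel2, and Impact, a regulator of translation. With the array set as a block Inpp5f gave −0.11, and Peg10 turned from −0.16 to 0.11. Rtl1 was detected on 5 arrays and Magel2 on 4. Other probes differed in sign for Nnat, at −0.14 ± 0.11 and −0.13 ± 0.12, and for Inpp5f, at 0.07 ± 0.11. Over the 13 paternally expressed genes, 7 were lower and 6 higher, with a median of −0.01.

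Gnas encodes the stimulatory G-protein subunit and, from other promoters, transcripts of the maternal or the paternal copy, and the files do not say which transcript each probe reads. Its brightest probe measured 9.23, 9.62 and 9.73 in wild-type controls and 8.40, 9.12 and 9.44 on high-fat. In Cited2 -/- embryos it measured 9.33, 9.28 and 9.90 on control and 9.11, 9.01 and 8.65 on high-fat diet. Of the 6 high-fat embryos, 5 lay below all 6 controls. The difference was −0.56 ± 0.19 (a 0.68-fold signal, unadjusted p = 0.012, adjusted p = 0.41, limma), and −0.48 ± 0.18 with the array set as a block. The other 5 tested probes gave −0.62, −0.35, −0.21, −0.03 and 0.15, so they differed in sign.

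Heart muscle markers are given beside the members with lower signal. Of 8 such markers, 7 were tested, and all 7 had lower signal on the high-fat diet, with a median of −0.65, an unadjusted p under 0.05 for 5, and 0 passing. Their mean normalized log2 signal was 9.99 to 10.20 in control and 9.25 to 10.16 in high-fat wild-type embryos, and 9.07 to 10.28 and 8.33 to 9.13 in Cited2 -/- embryos, so the diets overlapped in both genotypes. The sum before normalization was 26117 to 30382 in control and 16312 to 28876 in high-fat wild-type embryos. In Cited2 -/- embryos it was 17648 to 28385 and 11033 to 14956. Myl7 and Actc1 were detected on all 12 arrays. Neural markers, of which 4 of 7 were tested, were lower for all 4, with a median of −0.33. They were En2 at −0.91 ± 0.21, Otx2 at −0.34, En1 at −0.33 and Sox2 at −0.12 ± 0.21. For Cited2 -/- minus wild type, En2 stood at −1.98 ± 0.21 (adjusted p = 0.0018, limma) and En1 at −1.36. These 4 genes do not stand for neural tissue as a whole. Their mean normalized log2 signal was 8.64 to 9.11 and 8.28 to 8.81 in wild-type embryos on control and high-fat diet, and 8.02 to 8.35 and 7.40 to 7.86 in Cited2 -/- embryos, where the diets did not overlap. Endothelial markers were lower for 5 of 7 (median −0.20) and somite markers for 5 of 5 tested (median −0.09), while primitive blood markers were higher for 6 of 6 tested (median 0.60). None of these 4 lists had a marker that passed for diet. The markers' part in the differences of Mest, Ndn, Rian and Gnas was not tested.

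**Figure D3:**
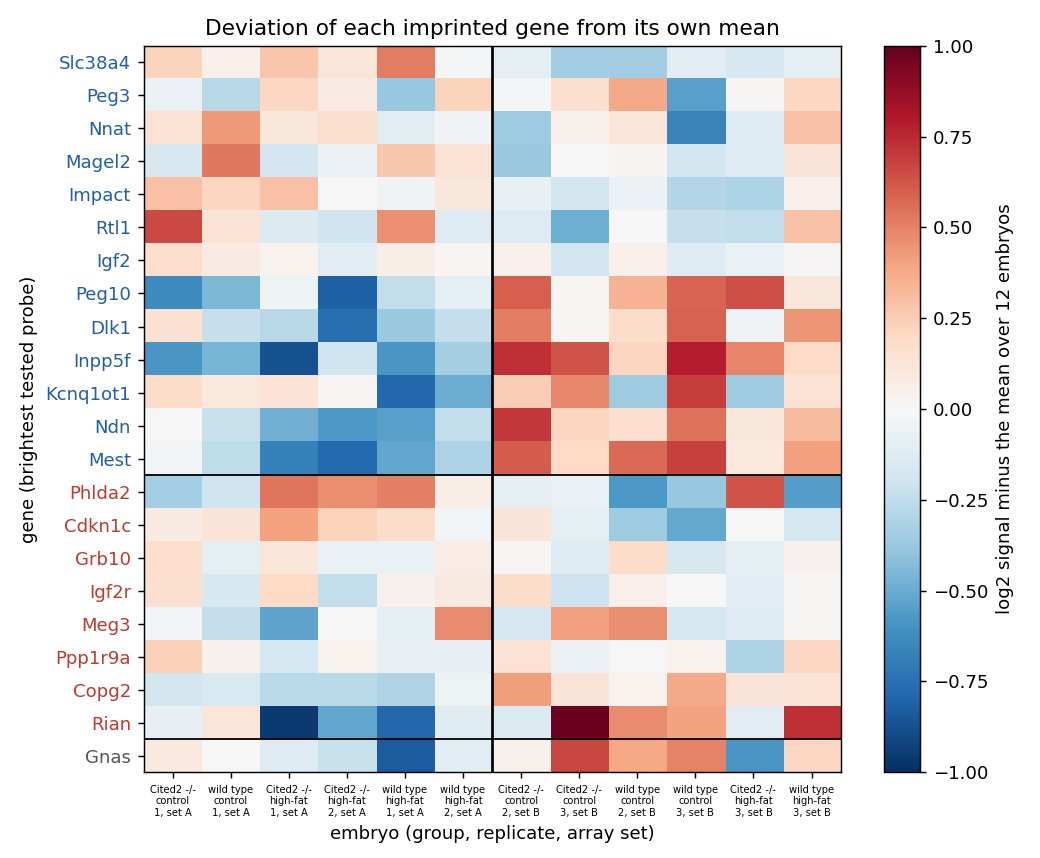
Log2 signal of the 22 tested imprinted genes in each embryo minus the gene's mean over the 12 embryos, with embryos ordered by array set and then diet and genes grouped by the allele known to be expressed. Mest, Ndn and Inpp5f were lower in set A (left) than in set B (right), by 0.86, 0.69 and 1.01 as plain differences of set means, and Phlda2 and Cdkn1c were higher in set A, by 0.34.

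The plain difference between the array sets also holds part of the diet difference, since the diets were unequally spread over them. Within groups, set B minus set A was 0.98 for Inpp5f, 0.81 for Peg10, 0.74 for Mest, 0.66 for Rian, 0.60 for Ndn and 0.49 for Dlk1. It was −0.35 for Slc38a4, −0.30 for Cdkn1c and −0.18 for Phlda2. The diet difference kept its sign within both sets for 13 of the 22 genes, 9 of them lower and 4 higher on the high-fat diet. The share over all genes was not computed, so this count has no baseline. With the set as a block, Phlda2, Mest, Gnas and Ndn had an unadjusted p under 0.05, as did 10.6% of genes, and none passed.

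Taken by genotype, no member passed for diet in wild-type embryos or in Cited2 -/- embryos, and none of the 19595 probes did in either (0% called in both). In wild-type embryos 0 members had an unadjusted p under 0.05, against 4.16% of probes, and the median difference was 0.04 over the members. In Cited2 -/- embryos 3 members did, against 6.15% of probes, and the median was −0.15. Those 3 were Phlda2 at 0.71 ± 0.22 (adjusted p = 0.72), Mest at −0.71 ± 0.33 and Gnas at −0.58 ± 0.27 (adjusted p = 0.79 for both, limma). The wild-type differences of the same genes were 0.39 ± 0.22, −0.46 ± 0.33 and −0.54 ± 0.27.

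**Figure D4:**
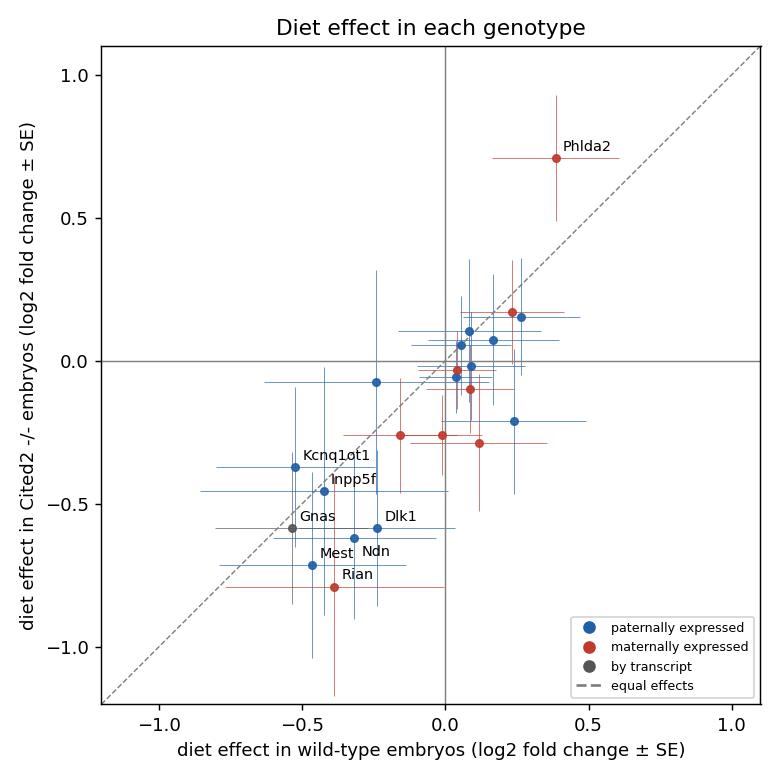
Diet effect on each tested imprinted gene in wild-type embryos (horizontal axis) and in Cited2 -/- embryos (vertical axis), as log2 fold changes with standard errors. Points on the dashed line have equal effects. Phlda2 lay at 0.39 in wild-type and 0.71 in Cited2 -/- embryos, and Rian at −0.39 and −0.79.

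The interaction, the diet effect in Cited2 -/- minus that in wild-type embryos, tests whether these differ. No member passed, and no probe did (0% called, with an unadjusted p under 0.05 for 1.26% of probes and for 0 members). The interaction was negative for 18 of 22 members, or 81.8%, and for 54.7% of all genes, with medians of −0.10 and −0.02. It was highest for Phlda2 at 0.32 ± 0.31 and for Peg10 at 0.17 ± 0.55, and lowest for Rtl1 at −0.45 ± 0.36 and Meg3 at −0.40 ± 0.34. The adjusted p was 1.00 for all 4 (limma). With 1 embryo left out in turn, the interaction ran from 0.05 to 0.57 for Phlda2, from −0.19 to 0.54 for Peg10, from −0.70 to −0.12 for Rtl1 and from −0.63 to −0.23 for Meg3.

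By embryo, Peg10 measured 5.14, 5.94 and 6.17 in wild-type controls and 5.34, 5.49 and 5.70 on high-fat. Cited2 -/- embryos gave 4.95, 6.19 and 5.61 on control and 5.54, 4.77 and 6.23 on high-fat diet. All 4 groups overlapped. Rtl1 measured 5.41, 5.28 and 5.05 in wild-type controls and 5.73, 5.15 and 5.57 on high-fat. The Cited2 -/- values were 5.94, 5.15 and 4.79 on control and 5.14, 5.08 and 5.03 on high-fat diet. The high-fat values of Cited2 -/- embryos lay below all 3 high-fat wild-type values, and the other groups overlapped. Meg3 measured 5.48, 6.18 and 5.54 in wild-type controls and 5.62, 6.19 and 5.73 on high-fat. Values in Cited2 -/- embryos were 5.69, 5.54 and 6.13 on control and 5.19, 5.72 and 5.59 on high-fat diet. The groups overlapped again, and Meg3 was detected on 11 arrays.

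Loss of Cited2 gave no member that passed either, averaged over diets or on either diet, while 14 probes passed for the averaged genotype effect (0.0714% called), 8 on the control diet (0.0408% called) and 3 on the high-fat diet (0.0153% called). The highest averaged differences, Cited2 -/- minus wild type, were 0.38 ± 0.16 for Phlda2 and 0.25 ± 0.13 for Cdkn1c. The lowest were −0.30 ± 0.12 for Magel2 and −0.27 ± 0.27 for Rian, which ran from −0.45 without replicate 3 of the Cited2 -/- controls to −0.075 without replicate 3 of the high-fat wild-type embryos. All 4 had an adjusted p of 1.00 (limma), and Phlda2 and Magel2 had an unadjusted p of 0.034 and 0.030, against 3.35% of probes under 0.05. Magel2 was near background, detected on 4 of the 12 arrays at a mean log2 signal of 5.12, against 12.84 for Phlda2. It ranked 10219 from the brightest of 10764 tested genes, so its genotype difference rests on dim signals. Under control feeding no member had an unadjusted p under 0.05 for genotype (1.62% of probes did), and under high-fat feeding Phlda2 did (3.38% of probes). Its genotype difference was 0.21 ± 0.22 under control and 0.54 ± 0.22 under high-fat feeding. Over the 22 members the median genotype difference was −0.01.

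Because imprinted genes lie in clusters, 6 neighbouring pairs were compared across embryos, within each array set of 6, giving 12 correlations that each span both diets and genotypes. None passed (exact permutation tests, two-sided, lowest adjusted p = 0.47). Cdkn1c and Phlda2, both silenced on the paternal copy, had Pearson's r = 0.65 (exact permutation p = 0.17) and Spearman's rho = 0.77 (exact permutation p = 0.10) in set A, and r = 0.61 (exact permutation p = 0.20) and rho = 0.66 (exact permutation p = 0.18) in set B. Without the 2 embryos farthest from the median of Cdkn1c, r was 0.90 and 0.88, each over 4 embryos. Mest and Copg2 had r = 0.65 and 0.57, and Meg3 and Rian 0.47 and 0.67, neither of which passed. Ndn and Magel2, neighbours that are both expressed from the paternal copy, had r = 0.02 in set A and −0.72 in set B. Without the 2 embryos farthest from the median of Ndn, r was 0.49 and 0.91, so the value in set B rested on those embryos. Other values over 4 embryos turned as well, that of Meg3 and Rian in set A to −0.51 and those of Cdkn1c and Kcnq1ot1 to −0.36 in set A, where r had been 0.36, and to 0.19 in set B, where it had been −0.25. Dlk1 and Meg3 had r = −0.01 in set A and −0.53 in set B, neither of which passed. Over 4 embryos these became 0.16 and −0.98.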

How the data were processed

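RNA of 12 embryos was labelled with biotin and read on 12 single-colour arrays, per the labels' protocols. Deposited signals are linear bead intensities exported by the authors from BeadStudio 3.2.6, per the submitters' processing notes, each with a deposited bead SD. The deposited detection p-value set each probe against negative controls. Single-array files give, per the file headers, a detection score, a fraction equal to 1 minus that p-value, and a bead count per probe. A further table by the authors, of log2 values and unstated normalization, served as an alternative.

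Signals were corrected and quantile-normalized with neqc of limma 3.58.1 in R 4.3.3, with an offset of 16. Probes with a detection p under 0.01 on at least 3 arrays were tested, 19595 of 45281, for 10764 genes. All 12 arrays entered 1 model of group means (lmFit and eBayes), with 7 contrasts and Benjamini-Hochberg adjustment over all tested probes at 0.05. Errors are standard errors of that model, and the number of arrays limits the precision. The fit was tested on simulated data. Array sets were split at the widest gap in the bead variation of probes with a signal above 500.

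All 35 members were accounted for. Values by embryo are given for the 4 highest and 4 lowest in the averaged diet effect, the 2 highest and 2 lowest in the interaction, and Igf2. In the genotype effect the 2 highest and 2 lowest are named by difference and p. In related lists the highest and lowest in the diet effect are named. Members and gene lists were chosen with earlier results of these data known.

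Deviations from group means, with the array set not removed, correlated between −0.53 and 0.37 for embryos sharing a title number. Those sharing a replicate number correlated between −0.26 and 0.68. Title pairs within an array set, numbers 1214 and 1307, gave 0.20 and 0.37, and those across the sets −0.53 to −0.12. The check therefore cannot tell whether embryos sharing a title number are related. Neither number was used to pair embryos in the main model. Alternatives were other normalizations and filters, the authors' values, array weights, the array set as a block or alone, replicate blocks, and each embryo left out.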

Additional observations from a re-analysis of the deposited data

How the results depend on the processing

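No member passed for any of the 7 contrasts in the main model, and this held under every alternative except array weights without the array set. Those weights ran from 0.395 to 7.43, with estimation stopped before its tolerance. They gave 8 of the 22 tested members for the averaged diet effect, where 6128 of all 19595 tested probes passed. For diet in wild-type embryos 1 of the 22 members passed, beside 1466 of the 19595 probes. In Cited2 -/- embryos 2 members passed for diet, beside 218 probes. The 8 were Mest, Dlk1, Ndn, Inpp5f, Phlda2, Copg2, Rian and Gnas. With the array set as a block beside the weights, chosen after seeing the data, 0 members passed in any contrast and 0 probes for diet.

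The median diet difference of the maternally expressed genes, −0.05, became −0.15 with median scaling, 0.026 with weights and set block, and −0.084 to 0.022 with 1 embryo left out. With the set block and 1 embryo left out, also chosen after seeing the data, it was −0.083 to 0.018. The median of the paternally expressed genes, −0.01, became −0.21 over genes detected on all 12 arrays and −0.16 within array set A. With the set block and 1 embryo left out it ran from −0.18 to −0.03. Igf2 changed sign for diet, to 0.074 in the authors' values, 0.031 within set B, −0.060 to 0.030 with 1 embryo left out and −0.077 to 0.0010 with the set block too. Peg10 changed sign in the interaction, to −0.074 within set A, −0.44 with array weights, −0.19 to 0.54 with 1 embryo left out and −0.067 to 0.42 with the set block too. The causes were not tested. Diet differences of Phlda2, Slc38a4, Cdkn1c, Peg3, Mest, Rian, Gnas and Ndn kept their sign under every alternative. These genes were picked for the largest differences on the same arrays, so the kept sign is not independent support.

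The replicate numbers shared by the groups, entered as a block, left 0 members passing in every contrast and the averaged diet difference of Phlda2 at 0.55, while 338 probes passed for diet. Of the 12 arrays, 8 correlated best with an array of their own number. Every replicate 1 array lay in set A and every replicate 3 array in set B. A block on replicate number therefore overlaps with the array set, and the 2 were not told apart here. The title numbers as a random block also left 0 members passing.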

Other observations

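Imprinted genes outside the 35 members, and the genes that keep imprints, were counted for the averaged diet effect. Of 42 other imprinted genes, 21 were tested, 11 higher and 10 lower on the high-fat diet, with a median log2 difference of 0.02, and 0 passed (limma, against 0% of all probes). Atp10a, a phospholipid-transporting ATPase, stood highest at 0.56 ± 0.17 (adjusted p = 0.40, 0.48 with the array set as a block). Cd81, a tetraspanin of the Kcnq1 cluster, stood lowest at −0.35 ± 0.17 (adjusted p = 0.43).

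Of 18 genes that establish or keep imprints, such as DNA methyltransferases and the co-repressor Trim28, 14 were tested, 6 higher and 8 lower, with a median of −0.05, and 0 passed. Dnmt3l, which stimulates methylation in germ cells, stood highest at 0.54 ± 0.25 (adjusted p = 0.42). Uhrf1, which brings Dnmt1 to newly copied DNA, stood lowest at −0.36 ± 0.32, and at 0.01 with the array set as a block.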
